A study of Homo sapiens with 3 samples.

Results

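The miR-424, miR-503, miR-542 and miR-450 cluster is a run of 6 microRNA (miRNA) hairpins on the human X chromosome. Its members were taken by name: hsa-mir-424, hsa-mir-503, hsa-mir-542, hsa-mir-450a-2, hsa-mir-450a-1 and hsa-mir-450b in a table of primary transcripts, and all of their arms in a table of mature miRNAs. All 6 hairpins were among the 661 listed, and 10 mature names were among the 783 listed. The miRNAs were measured by small RNA sequencing in MV4-11, a human acute myeloid leukemia line that is homozygous for FLT3-ITD and carries the MLL-AF4 fusion. The cells carried the lentiCRISPRv2 construct as an empty vector, which supplies Cas9 and no guide against a human gene, are labelled WT, and were grown for 2 weeks. There was 1 group of 3 libraries and no second condition, so every comparison lies within or between these libraries. The labels do not say whether the libraries came from separate cultures, so the p-values measure only the spread between them, which may be technical.

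The miRNAs of such a cluster are cut from a shared precursor RNA. Each hairpin is released in the nucleus by Drosha and trimmed by Dicer to a duplex, of which one strand, the 5p or the 3p arm, is usually kept in Argonaute. miR-424 is known in myeloid cells for its induction by PU.1 during monocyte and macrophage differentiation, where it represses NFIA. miR-424-5p and miR-503-5p are relatives of miR-16 and repress cell cycle genes such as cyclins, and miR-542-3p is known to repress survivin.

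The seed, bases 2 to 8 of a mature miRNA, is the stretch that pairs with target mRNAs, and it divides the cluster into unrelated groups. Sequences are from RefSeq (GRCh38.p14), which had an entry for 9 of the 10 listed names. They run 5′ to 3′ with the seed in capitals, and the pair related to miR-16 is shown first, beside miR-16-5p itself.
miR-424-5p: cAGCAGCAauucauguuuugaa
miR-503-5p: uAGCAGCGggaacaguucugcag
miR-16-5p: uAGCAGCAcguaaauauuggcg
miR-424-5p had the same seed as miR-16-5p, while miR-503-5p shared only bases 2 to 7 with them. The abundant arms with other seeds were the following.
miR-424-3p: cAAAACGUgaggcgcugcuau
miR-450a-5p: uUUUGCGAuguguuccuaauau
miR-450b-5p: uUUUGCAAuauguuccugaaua
The seeds of miR-424-3p, miR-450a-5p, miR-450b-5p and miR-503-5p were held by no other listed miRNA with a known sequence. miR-450a-5p and miR-450b-5p had the same base at 16 of 22 positions counted from the 5′ end. miR-542-3p is named only.

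The hairpin of miR-424 is printed with both arms in capitals, because this miRNA alone in the cluster had large amounts of both.
MIR424 hairpin: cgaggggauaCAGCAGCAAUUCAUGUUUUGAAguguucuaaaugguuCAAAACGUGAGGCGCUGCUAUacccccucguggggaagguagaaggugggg
The 5p arm took bases 11 to 32 and the 3p arm bases 48 to 68 of its 98 bases. For contrast, the hairpin of miR-503, which kept the 5p arm in every library, is written in the same way.
MIR503 hairpin: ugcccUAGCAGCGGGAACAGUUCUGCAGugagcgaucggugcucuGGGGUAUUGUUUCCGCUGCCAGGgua

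On GRCh38 the hairpins lay on the minus strand of the X chromosome over 6527 bases, and no other annotated miRNA gene lay on that strand between them. In the direction of transcription MIR424 came first (chrX:134546614-134546711) and was followed 215 bases later by MIR503 (chrX:134546328-134546398). A gap of 4890 bases separated these from MIR542 (chrX:134541341-134541437). MIR450A2 (chrX:134540508-134540607), MIR450A1 (chrX:134540341-134540431) and MIR450B (chrX:134540185-134540262) followed, the last 3 hairpins being separated by 76 and 78 bases. In GENCODE release 29 the long noncoding RNA gene MIR503HG (chrX:134543337-134546632, minus strand) held all of MIR503 in an intron and the last 19 bases of MIR424 in its first exon. The other 4 hairpins lay 1899 to 3074 bases beyond its annotated 3′ end, so MIR503HG as annotated does not cover the whole cluster. Whether another annotated transcript does was not examined.

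The libraries held 10991953 to 12694823 counts of mature miRNAs. Replicate 1 stood apart from the other two. Its most abundant miRNA, miR-21-5p, took 38.5% of the mature counts against 26.8% and 20.2% in replicates 2 and 3, and the median mature miRNA was 0.48 and 0.57 higher on the log2 scale in replicates 2 and 3 than in replicate 1. Of 4 white blood cell markers (miR-142-3p, miR-142-5p, miR-223-3p and miR-155-5p), all were listed, with a summed level of 1415520 to 2545310 FPKM. Of 7 markers of other cell types, 6 were listed, with a summed level of 9459 to 13294 FPKM. Of these, miR-200c-3p, an epithelial marker, was the highest at 4167 to 7656 FPKM. The muscle marker miR-1-3p came next at 4092, 3660 and 3525 FPKM in replicates 1, 2 and 3. The red cell marker miR-451a, a defining one, was at 37.5 to 104 FPKM. FPKM, the deposited level, is the reads of a feature divided by the feature's length and by the library's total.

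Of the mature arms, 6 carried most of the cluster's counts, with mean levels from 6094 to 11553 FPKM, and the other 4 arms were at 58.7 to 255 FPKM. miR-450a-5p was at 11367, 12162 and 11130 FPKM in replicates 1, 2 and 3, a mean of 11553 ± 541 (SD, n = 3). It ranked 130 of 783 mature miRNAs and was nearly equal in the 3 libraries in FPKM, but not under the other scaling described below. Its level is the sum over both miR-450a hairpins.

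miR-450b-5p was at 8866, 11010 and 12157 FPKM. miR-503-5p was at 5617, 11105 and 13246 FPKM. miR-424-3p was at 9187, 9910 and 9624 FPKM. The highest library of miR-503-5p was 2.36 times the lowest, whereas that of miR-424-3p was 1.08 times the lowest.

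miR-542-3p was at 5127, 7736 and 8053 FPKM. miR-424-5p was at 2258, 7385 and 8640 FPKM. Both were lowest in replicate 1, and miR-424-5p had the widest spread of the 6 abundant arms, with a coefficient of variation of 55.5%, where counting error alone would give 2.60%. In order of their means, miR-450a-5p, miR-450b-5p, miR-503-5p and miR-424-3p each had a range that overlapped that of the next. The first and the last of these did not overlap, and miR-450a-5p lay above miR-424-3p in 3 of 3 libraries. The range of miR-424-3p lay above that of miR-542-3p, and that of miR-542-3p overlapped that of miR-424-5p.

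**Figure D1:**
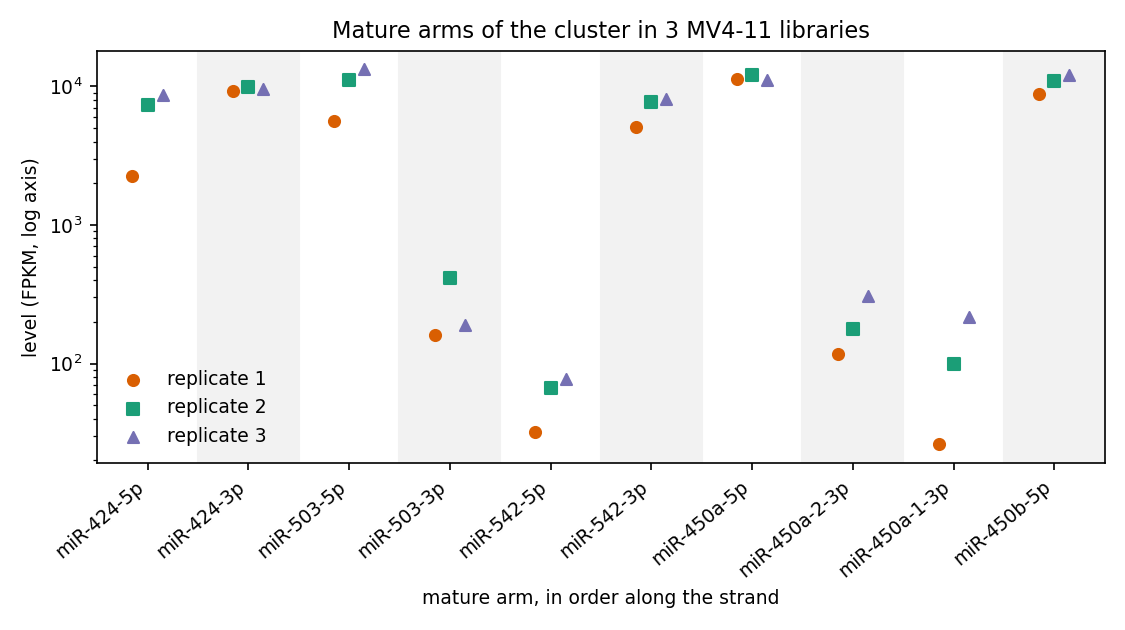
Level of each listed mature arm (FPKM, logarithmic axis) in the 3 MV4-11 libraries, 1 point per library, with the arms in the order of their hairpins. In every library 6 arms lie at 2258 FPKM or more and the other 4 at 413 FPKM or less, and miR-424-5p in replicate 1 (2258 FPKM) lies well under its values in replicates 2 and 3.

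The minor arms rested on few counts. miR-503-3p had 45, 100 and 49 counts, with its highest level in replicate 2. miR-450a-2-3p had 31, 41 and 75 counts, and miR-450a-1-3p had 7, 23 and 53. miR-542-5p had 9, 16 and 20 counts, which in replicate 1 was 0.709 CPM (counts scaled to the library's total, 95% Wilson interval 0.373 to 1.35, for counting error only). miR-450b-3p had no row. The miR-450b hairpin had 1, 7 and 6 counts beyond those of its 5p arm, so at least 99.7% of its reads were miR-450b-5p in every library.

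The arm balance was asked of each hairpin with both arms listed. miR-503 and miR-450a were nearly all 5p, miR-542 was nearly all 3p, and miR-424 had large amounts of both. miR-424-5p and miR-424-3p had 602 and 2333 counts in replicate 1, 1705 and 2179 in replicate 2, and 2120 and 2249 in replicate 3. The 5p arm thus made up 20.5% (95% Wilson interval 19.1% to 22.0%) of the 2 arms in replicate 1, 43.9% (42.3% to 45.5%) in replicate 2 and 48.5% (47.0% to 50.01%) in replicate 3. miR-424-3p exceeded miR-424-5p in 3 of 3 libraries, at 3.88, 1.28 and 1.06 times its counts, so the arms were near balance in replicates 2 and 3 alone.

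In edgeR's quasi-likelihood test over all 209 arm pairs, with each library as a block, the log2 ratio of 5p to 3p of miR-424 was -0.78 ± 0.44 (standard error, adjusted p = 0.147). This did not pass the call rule, an adjusted p under 0.05 with an absolute log2 ratio of at least 1. Without replicate 1 the ratio was -0.22 (adjusted p = 0.287), and without replicate 3 it was -1.15 (adjusted p = 0.0567). The ratio of the arms does not depend on how the libraries are scaled. Between libraries, its standard deviation was 1.01 on the log2 scale, against a median of 0.353 among the 46 pairs with at least 500 counts of each arm in every library, of which 2 had a larger one.

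The 5p share of miR-503 was 97.2%, 96.4% and 98.6%, a log2 ratio of 5.32 ± 0.41 (edgeR adjusted p = 0.000105). For miR-450a, with the 3p arms of both copies summed, the 5p share was 98.8%, 97.8% and 95.5%, a log2 ratio of 5.37 ± 0.49 (edgeR adjusted p = 0.000197). The 3p share of miR-542 was 99.0% to 99.3%, a log2 ratio of 5p to 3p of -6.86 ± 0.35 (edgeR adjusted p = 2.16e-05). The dominant arm of these 3 miRNAs was the same in 3 of 3 libraries. Thus 3 of the 4 member pairs were called, where 172 of all 209 pairs (82.3%) were, so a called arm preference was usual in these cells. The median absolute log2 ratio over all pairs was 3.39.

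**Figure D2:**
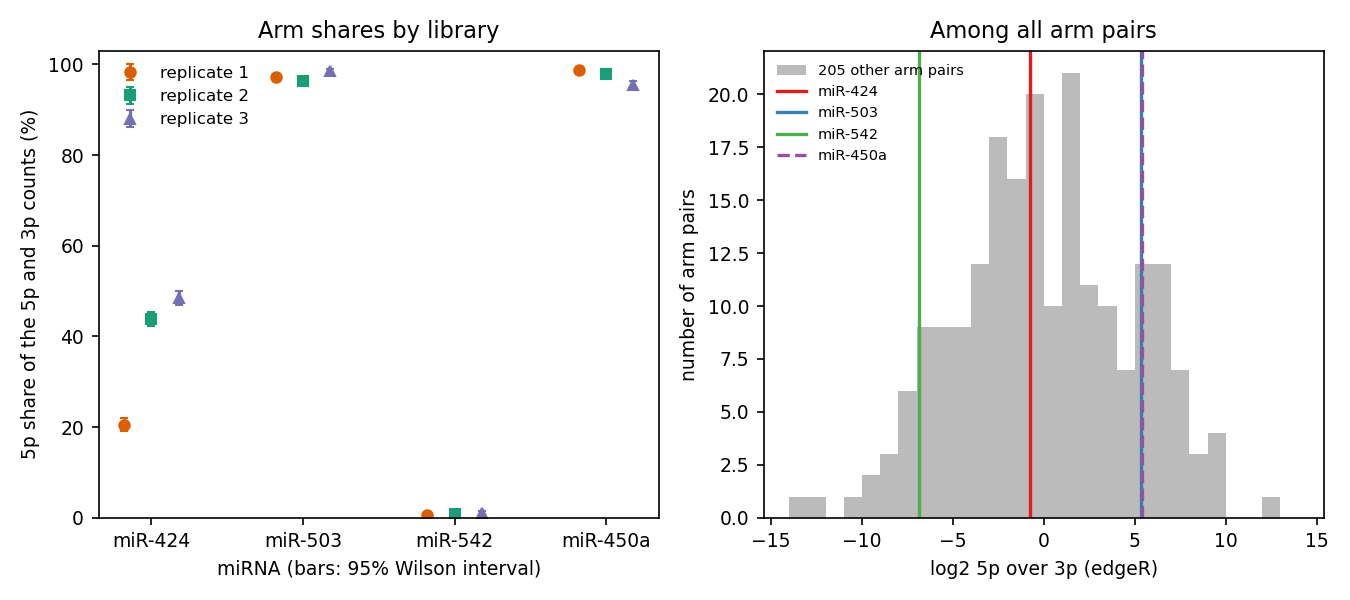
Left, the share of the 5p arm among the counts of both arms (%), with its 95% Wilson interval, for each miRNA and library. Right, the log2 ratio of 5p to 3p from edgeR for the 4 member pairs (lines) over a histogram of the other 205 pairs, where miR-424 (-0.78) lies near 0 and the other members lie far from it.

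Along the cluster the deposited hairpin levels were high in the first pair, low in the middle and high at the end. At most 2.76% of a hairpin's counts in any library lay outside its listed arms. These levels are thus nearly all reads of mature arms divided by hairpin length, and do not measure the precursor RNA along the cluster. The levels of both miR-450a hairpins rest on a near-even division of miR-450a-5p reads, which come from a sequence that the 2 hairpins share, so each holds about 50% of them. hsa-mir-424 was at 2394, 3662 and 3866 FPKM (mean 3307 ± 797, n = 3). hsa-mir-503 was at 1839, 3631 and 4223 FPKM (3231 ± 1241). Both were lowest in replicate 1.

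hsa-mir-542 was at 1158, 1747 and 1810 FPKM. hsa-mir-450a-2 was at 1225, 1299 and 1208 FPKM, and hsa-mir-450a-1 at 1361, 1509 and 1405 FPKM. The last hairpin, hsa-mir-450b, was at 2414, 3003 and 3313 FPKM (2910 ± 457). Its range lay above those of hsa-mir-542 and of both miR-450a hairpins, and overlapped those of hsa-mir-424 and hsa-mir-503. The highest mean was 2.66 times the lowest.

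**Figure D3:**
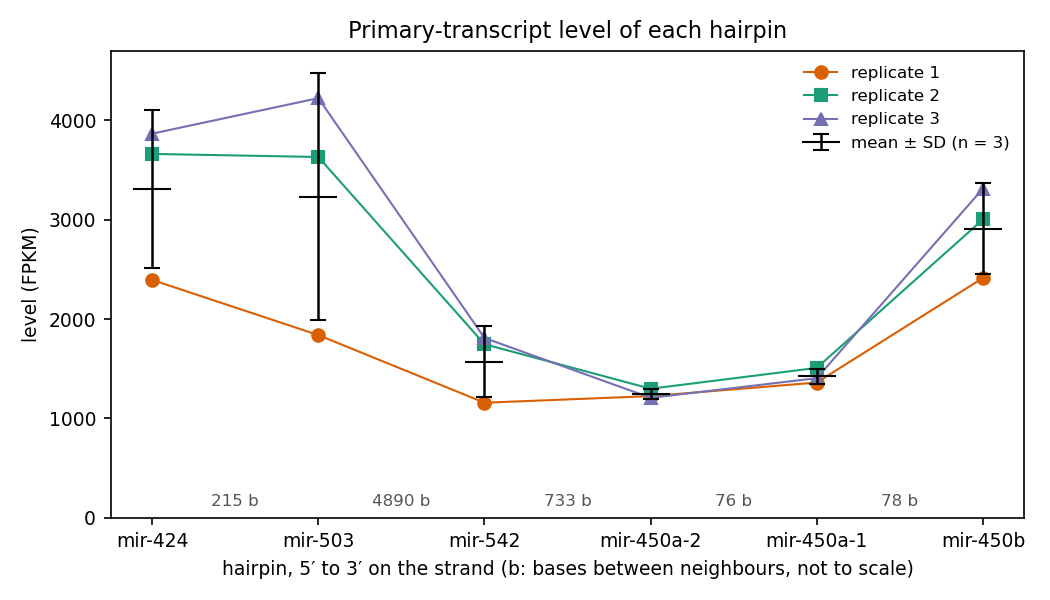
Level of each hairpin (FPKM) in transcription order, with 1 line per library, the mean and SD of the 3 libraries in black, and the bases between neighbours at the foot (not to scale). The means are 3307 and 3231 FPKM for the first pair, 1244 to 1572 FPKM for the 3 in the middle and 2910 FPKM for the last. Nearly all of the counts are reads of mature arms, so the levels are not those of the precursor RNA.

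Neighbouring hairpins were compared per unit length within each library. hsa-mir-450b was 1.77, 1.99 and 2.36 times hsa-mir-450a-1 in replicates 1, 2 and 3, a log2 ratio of 1.02 ± 0.16 (edgeR adjusted p = 0.00239). This was the only one of the 5 steps that passed the call rule, where 59 of 83 neighbouring pairs of all listed hairpins within 10 kb (71.1%) passed. The step rests on the division of miR-450a-5p reads between its copies, since the undivided level of miR-450a-5p (11367, 12162 and 11130 FPKM) was near that of miR-450b-5p (8866, 11010 and 12157 FPKM). It also lay at the edge of the rule: at 0.91 without replicate 3, and at 0.79 when counts were not divided by length, it no longer passed.

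Across the gap of 4890 bases, hsa-mir-542 was 0.630, 0.481 and 0.429 times hsa-mir-503, a log2 ratio of -0.98 ± 0.17 (edgeR adjusted p = 0.00402), which fell just short of the size required. Without replicate 1 it was -1.14 (edgeR adjusted p = 0.00293) and passed. It was weaker at -0.94 without replicate 2 (edgeR adjusted p = 0.0584) and at -0.86 without replicate 3 (edgeR adjusted p = 0.0192). When counts were not divided by length it was -0.53 (edgeR adjusted p = 0.0347). hsa-mir-503 was 0.768, 0.992 and 1.09 times hsa-mir-424, a log2 ratio of -0.09 ± 0.16 (edgeR adjusted p = 0.621) whose sign turned to 0.058 without replicate 1. The near equality of these hairpins depends on the division by length, without which the log2 ratio was -0.56 (edgeR adjusted p = 0.0242). The steps from hsa-mir-542 to hsa-mir-450a-2 (-0.31 ± 0.19) and from hsa-mir-450a-2 to hsa-mir-450a-1 (0.20 ± 0.14) had edgeR adjusted p = 0.181 and 0.230. Both rest on the same division, and the second cannot be read as a difference between the copies. Steps that share a hairpin are not independent.

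The median absolute step in the cluster was 0.31 on the log2 scale, against 1.99 over all 83 neighbouring pairs. This 0.31 is the step from hsa-mir-542 to hsa-mir-450a-2, which rests on the division of miR-450a-5p reads. The 83 pairs were taken by strand and distance alone, with no requirement of a shared transcript. Over whole clusters, the ratio of the highest to the lowest hairpin mean was 2.66 here, and in the other 14 clusters of at least 3 listed hairpins it ran from 1.54 to 3468 with a median of 5.01. Of these 14 clusters, 3 had a smaller ratio. The lowest hairpin here, hsa-mir-450a-2, is one of those whose reads were divided. Shared sequences also touch the other clusters. The ratio of 3468 came from the miR-106a to miR-363 cluster, where hsa-mir-92a-2 gives a mature sequence that also comes from another chromosome. The difference of the miR-424 to miR-450 cluster from the others was not tested.

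**Figure D4:**
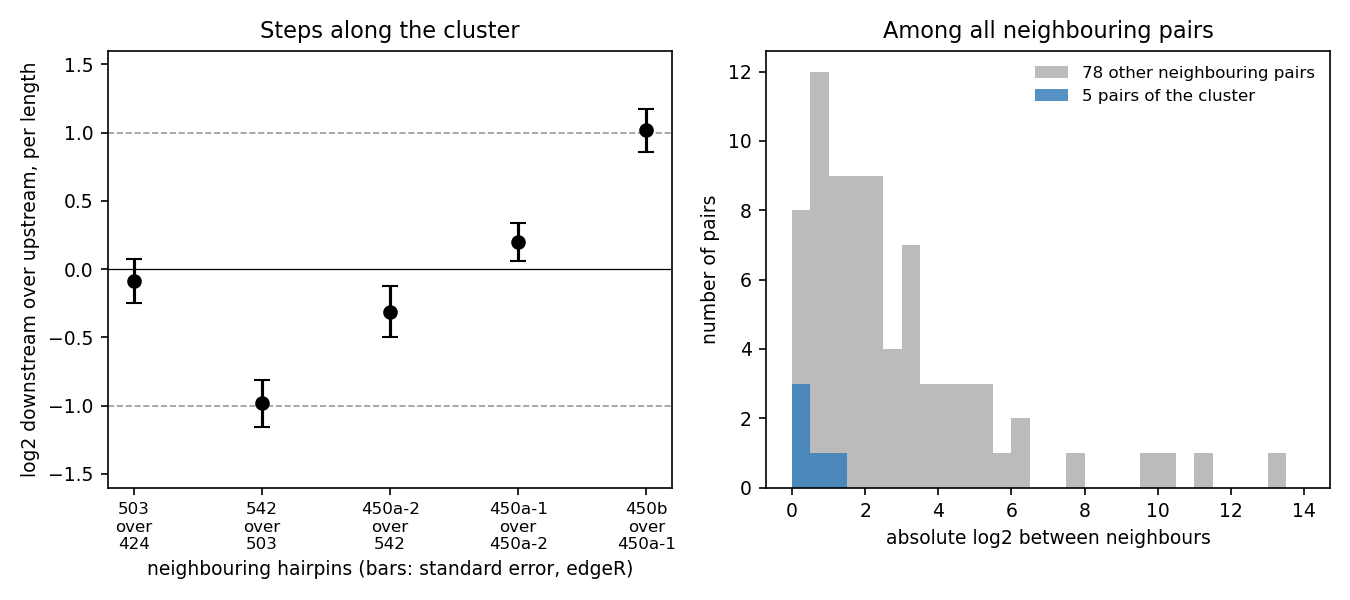
Left, the log2 ratio of each hairpin to its upstream neighbour per unit length, with its standard error from edgeR and dashed lines at the call limits of -1 and 1. Right, the absolute log2 ratios of the 5 member pairs over those of the other 78 neighbouring pairs, where all 5 lie at or under 1.02.

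The proximal pair (hsa-mir-424 and hsa-mir-503) and the 4 distal hairpins were also compared as sums. The proximal sum was 4233, 7293 and 8089 FPKM and the distal sum 6158, 7558 and 7736 FPKM. The log2 ratio of proximal to distal was -0.54, -0.05 and 0.06, a mean of -0.18 ± 0.32 (SD, n = 3, two-sided exact sign-flip permutation p = 0.75, the smallest possible being 0.25). The sums were therefore close in replicates 2 and 3, while the proximal one was 0.687 times the distal one in replicate 1.

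Reads of miR-450a-5p cannot be assigned to a copy, because both hairpins give the same sequence. The mature table gave it 2 rows, with 1519 and 1512 counts in replicate 1, 1433 and 1375 in replicate 2, and 1406 and 1325 in replicate 3. The larger row held 50.1%, 51.0% and 51.5% of the sum, and the 95% Wilson interval included 50% in replicates 1, 2 and 3, with a lowest bound of 48.3% and a highest of 53.4%. Their 3p arms differ in sequence, being the same at 19 of 22 positions, and had 31, 41 and 75 counts from MIR450A2 against 7, 23 and 53 from MIR450A1.

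Few reads fell outside the listed arms. For hsa-mir-424 they were 0.569% to 0.817% of the hairpin's counts, and for hsa-mir-503 0.289% to 1.47%. For hsa-mir-542 they were 1.96% to 2.76% and for hsa-mir-450a-1 1.55% to 2.74%.

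Within the miR-16 seed family, here the 7 listed miRNAs with bases 2 to 7 of miR-424-5p, the cluster's arms were minor members. miR-16-5p, a repressor of BCL2 and cyclins, made up 70.9% ± 0.98 (SD, n = 3) of the family's summed FPKM. miR-15b-5p made up 17.7% ± 1.66 and miR-15a-5p 6.17% ± 0.39. miR-503-5p made up 3.27% ± 0.97 and miR-424-5p 1.78% ± 0.03, and both lay above miR-195-5p (0.126%) and miR-497-5p (0.050%). miR-424-5p and miR-503-5p together made up 6.16%, 4.41% and 4.60% of the family in replicates 1, 2 and 3, a mean of 5.06% ± 0.96, and 4.50% without replicate 1.

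The members did not move together from library to library. On the log2 scale of FPKM, miR-424-5p was 1.71 and 1.94 higher in replicates 2 and 3 than in replicate 1, and miR-503-5p 0.98 and 1.24 higher. miR-424-3p, from the same hairpin as miR-424-5p, differed by 0.11 and 0.07, and miR-450a-5p by 0.10 and -0.03. Over all 781 mature miRNAs with counts in every library the medians were 0.48 and 0.57, so miR-424-5p lay well above the median and miR-424-3p and miR-450a-5p below it. Of all 781, 9.99% had a higher ratio of replicate 2 to replicate 1 than miR-424-5p, and 66.8% a higher one than miR-424-3p.

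The 5 members of the seed family from outside the cluster had log2 ratios of 1.54 to 2.02 for replicate 2 over replicate 1 and of 1.78 to 2.25 for replicate 3 over replicate 1. The values of miR-424-5p lay inside both of these ranges, and those of the other 3 arms from the miR-424 and miR-503 hairpins lay below them. The share of miR-424-5p in the family was accordingly close to constant (1.78% ± 0.03), while its share of its own hairpin's arms ran from 20.5% to 48.5%. Some miRNAs from outside the family also lay inside both ranges of log2 ratios, such as miR-19b-3p (1.74 and 2.07) and miR-223-3p (1.61 and 1.81). The ranges are therefore not particular to the family, and the share of all mature miRNAs inside them was not counted. The white blood cell marker miR-142-3p also moved between libraries, from 209151 FPKM in replicate 1 to 676033 and 701152 in replicates 2 and 3. The part of the replicate 1 library as a whole in these differences was not tested.

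The directions of the abundant arms that moved least depended on the scaling. Scaled by TMM, edgeR's trimmed mean of M-values, the median of all mature miRNAs moved to -0.039 and -0.067. miR-424-5p was then 1.19 and 1.30 higher in replicates 2 and 3 than in replicate 1 and miR-503-5p 0.47 and 0.60 higher. miR-424-3p turned to -0.41 and -0.57, miR-450a-5p to -0.42 and -0.67 and miR-450b-5p to -0.20 and -0.18. miR-542-3p was 0.079 and 0.011 higher, close to equal in the 3 libraries.

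**Figure D5:**
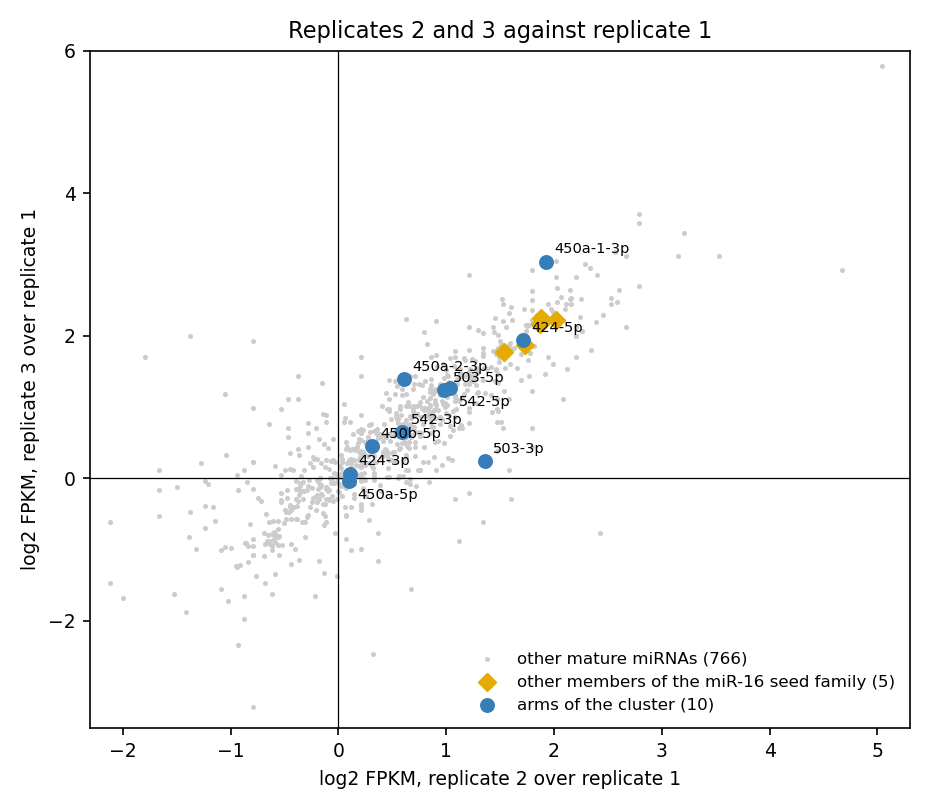
Log2 ratio of FPKM in replicate 2 (x axis) and replicate 3 (y axis) to replicate 1, with 1 point per mature miRNA counted in every library. The 5 other members of the miR-16 seed family lie together at 1.54 to 2.02 on the x axis with miR-424-5p among them, while miR-424-3p and miR-450a-5p lie near 0. Some miRNAs from outside the family lie in the same region.

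The miRNAs whose pattern over the 3 libraries was most like the mean of the 6 abundant arms were miR-23b-3p, miR-27b-3p and miR-500a-3p. Likeness was the Euclidean distance between centred log2 CPM, among 158 miRNAs from outside the cluster with at least 1000 counts in every library, and the distances were 0.0014, 0.057 and 0.10. miR-23b-3p had 2943, 3952 and 4462 counts. Among the arms themselves the distance to their mean ran from 0.048 for miR-542-3p to 0.94 for miR-424-5p. The 3 miRNAs were chosen for their closeness to that mean, so their distances cannot be set against those of the arms, and with 3 libraries this is a description only.

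As a whole the cluster was a small part of the miRNA pool. Its 6 hairpins summed to 10391, 14851 and 15825 FPKM, or 0.0902%, 0.127% and 0.135% of the hairpin counts. The miR-106a to miR-363 cluster, also on the X chromosome, was the comparison, with 5 of its hairpins listed and hsa-mir-363 without a row. Its sum was 180427, 217666 and 282070 FPKM, and the log2 ratio of the miR-424 to miR-450 cluster to it was -4.12, -3.87 and -4.16 (mean -4.05 ± 0.15, n = 3, two-sided exact sign-flip permutation p = 0.25, the smallest possible).

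hsa-mir-92a-2 made up 93.6% of the comparison sum. It and hsa-mir-19b-2 give mature sequences that also come from a cluster on another chromosome. Without these 2 hairpins together, a choice made after the values were seen, the order was the reverse: the comparison sum was 711, 2508 and 3582 FPKM, and the miR-424 to miR-450 cluster was 14.6, 5.92 and 4.42 times it (mean log2 ratio 2.86 ± 0.90, n = 3, two-sided exact sign-flip permutation p = 0.25).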

How the data were processed

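Small RNA libraries of 3 samples were made from miRNeasy RNA with the NEB kit and sequenced on an Illumina HiSeq. Per the labels, miRNAs were those of miRBase v21. Novoalign 2.08.03 and the builds hg19 and mm10 appear in the submitters' processing notes with no role. The authors deposited raw read counts and FPKM for each hairpin and mature miRNA. The deposited FPKM had been computed with the feature's length less 1 base, as 654 of 655 hairpins showed. Every listed row reached 10 counts in some library. The deposited tables held no coordinates, so positions are from GENCODE release 29 (GRCh38).

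Rows of 1 mature name were summed. The 2 arms of a miRNA, or 2 neighbouring hairpins within 10 kb with a length offset, were compared by edgeR 4.0.16 (quasi-likelihood test, library as a block, Benjamini-Hochberg adjustment over all pairs, pairs with at least 10 counts in sum), with calls at an adjusted p under 0.05 and an absolute log2 ratio of at least 1. All 4 member arm pairs and 5 member neighbours passed the filter. The code was tested on simulated data. Alternatives were limma 3.58.1 (pseudocounts 1 and 10), DESeq2 1.42.0, other filters, scalings and distances, and each replicate left out. Sums were compared by exact sign-flip permutation tests (Python 3.11.15). Named miRNAs were all members, the miR-16 seed family, the miR-106a to miR-363 cluster as a sum, marker miRNAs, and the 3 miRNAs most like the cluster. The marker miR-1-3p was taken from the row named miR-1. Members and lists were chosen with earlier results of these data known. Depth was 10991953 to 12694823 mature counts per library, and intervals cover counting error only.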

Additional observations from a re-analysis of the deposited data

How the results depend on the processing

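Of 166 results recomputed under an alternative, 158 kept their direction and their side of the threshold, or stayed within the spread of the replicates. Many of these could hardly change, such as mean levels with 1 replicate left out. Dropping the count filter left the same 209 arm pairs. The tally is therefore no measure of robustness. Among the pair counts, ratios of sums, family share and replicate medians, 38 recomputed results were the same and 4 reversed. Left out in turn, the replicates gave a proximal over distal log2 ratio from -0.30 to 0.0065, with the sign turning without replicate 1, and arm pairs called from 149 to 181 of 209. The ratio of hsa-mir-503 to hsa-mir-424 ran from -0.20 to 0.058 with replicates left out and turned in sign without replicate 1. Without division by length that ratio was -0.56. The step from hsa-mir-503 to hsa-mir-542 passed the call rule without replicate 1 (-1.14). That step was -0.94 and -0.86 without replicates 2 and 3, and -0.53 without division by length. The step to hsa-mir-450b was lost without replicate 3 (0.91) and without division by length (0.79), the last because hsa-mir-450a-1 is the longer hairpin. Under TMM the median ratios of replicates 2 and 3 to replicate 1 over all mature miRNAs turned to -0.039 and -0.067. Without hsa-mir-19b-2 and hsa-mir-92a-2, chosen after the data were seen, the ratio to the miR-106a to miR-363 cluster turned to 2.86. Where no value shows it, the cause was not tested. The arm, neighbour and sum comparisons were paired within libraries, which enter the edgeR fits as blocks. There is 1 group, so no pairing of samples between groups was possible.

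The permutation tests over 3 libraries could not pass 0.05. The minor arms of miR-503, miR-542 and miR-450a, at 7 to 100 counts in a library, limit their arm ratios, and reads of miR-450a-5p cannot be told apart by copy, which touches the 3 steps that involve a miR-450a hairpin.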
